A study of Rattus norvegicus with 12 samples.

Results

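Transcripts of 10 genes that build the core of the basement membrane were followed in rat lung: the laminin alpha chains Lama2, Lama3, Lama4 and Lama5, the beta chains Lamb1 and Lamb2, the gamma chain Lamc1, the nidogens Nid1 and Nid2, and perlecan (Hspg2). Of the 30045 genes in the deposited count table, these 10 were taken by name, 9 of them by their symbol. Perlecan is listed there under LOC313641 and was found through its NCBI gene ID. Its values are therefore those of that entry, whose gene model in the annotation behind the counts was not known here.

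RNA was sequenced from the lungs of 12 male Fischer 344 rats (F344/DuCrl), bought at 3 months of age and housed 3 to a cage. In the air group, 6 rats breathed air in whole-body inhalation chambers. In the CNC group, 6 rats breathed crystalline nanocellulose, rod-shaped particles made from plant cellulose, at 20 mg/m3 for 6 hours a day and 5 days a week until 14 days of exposure had been completed. Lungs of both groups were collected 1 day after the last exposure. No rat carried a transgene or a deletion per the labels. The inhaled agent is the only difference between the groups that the labels name, which does not exclude others. Each library comes from whole lung tissue, with the cage of each rat not known here. The question put to the data was whether the chains laid down under lung epithelium and those laid down around blood vessels moved alike after CNC.

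A laminin is a cross-shaped molecule of an alpha, a beta and a gamma chain that polymerises into the sheet on which epithelial, endothelial and muscle cells rest. Nidogens tie that sheet to the type IV collagen network, and perlecan, a large heparan sulfate proteoglycan, adds a further link and holds growth factors. The alpha chain sets which cell a laminin serves: the alpha 3 chain is made mainly by epithelium, the alpha 4 chain by endothelium and other mesenchymal cells, the alpha 5 chain by both epithelium and mature endothelium, and the alpha 2 chain by muscle and mesenchymal cells.

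Libraries held 8693259 to 16603697 counts over genes. Levels are CPM, the counts of a gene relative to its library total after scaling by edgeR's TMM factors. A gene is called changed at an adjusted p under 0.05, where p comes from the quasi-likelihood test of edgeR and is adjusted by Benjamini-Hochberg over the 15019 genes tested. Each member was backed by 175 (Nid2) to 12680 (Lamb2) counts in a library. Markers of type 2 alveolar epithelium summed to between 23825 and 38889 CPM in the 12 libraries, as fits lung. Markers of heart muscle, a tissue that can be cut with lung, summed to between 15.4 and 462 CPM and overlapped between the groups.

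After CNC, 8 of the 10 genes fell and 0 rose. The median log2 fold change over the 10 genes was -0.25, against -0.00 over all genes tested. Of all genes tested, 24.6% were called, 11.4% as lower and 13.2% as higher. Among the 8129 tested genes with at least the mean level of Nid2, the least counted member, 32.3% were called and 15.9% were called lower. The falls were small, from 9.69% for Lamc1 to 31.97% for Nid2. The exceptions were Lama3 and Hspg2. In 5 of the 10 genes every CNC rat lay below every air rat, against 4.7% of all genes tested in that direction, 6.82% with every CNC rat above every air rat, and 11.5% in either. Summed over the 10 genes, the level ran from 2542 to 2692 CPM in the air rats and from 2262 to 2358 CPM in the CNC rats, with no overlap. CPM are relative to the library total, so more RNA from other cells can also lower them. In whole lung, this, fewer cells of a type and less RNA per cell cannot be told apart. Endothelial markers fell as well, in 18 of 20 tested, and their part in these falls was not tested. With a covariate for circadian clock genes, which did not overlap between the groups, edgeR called 0 of the 10 genes, of which 7 had an unadjusted p under 0.05.

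**Figure D1:**
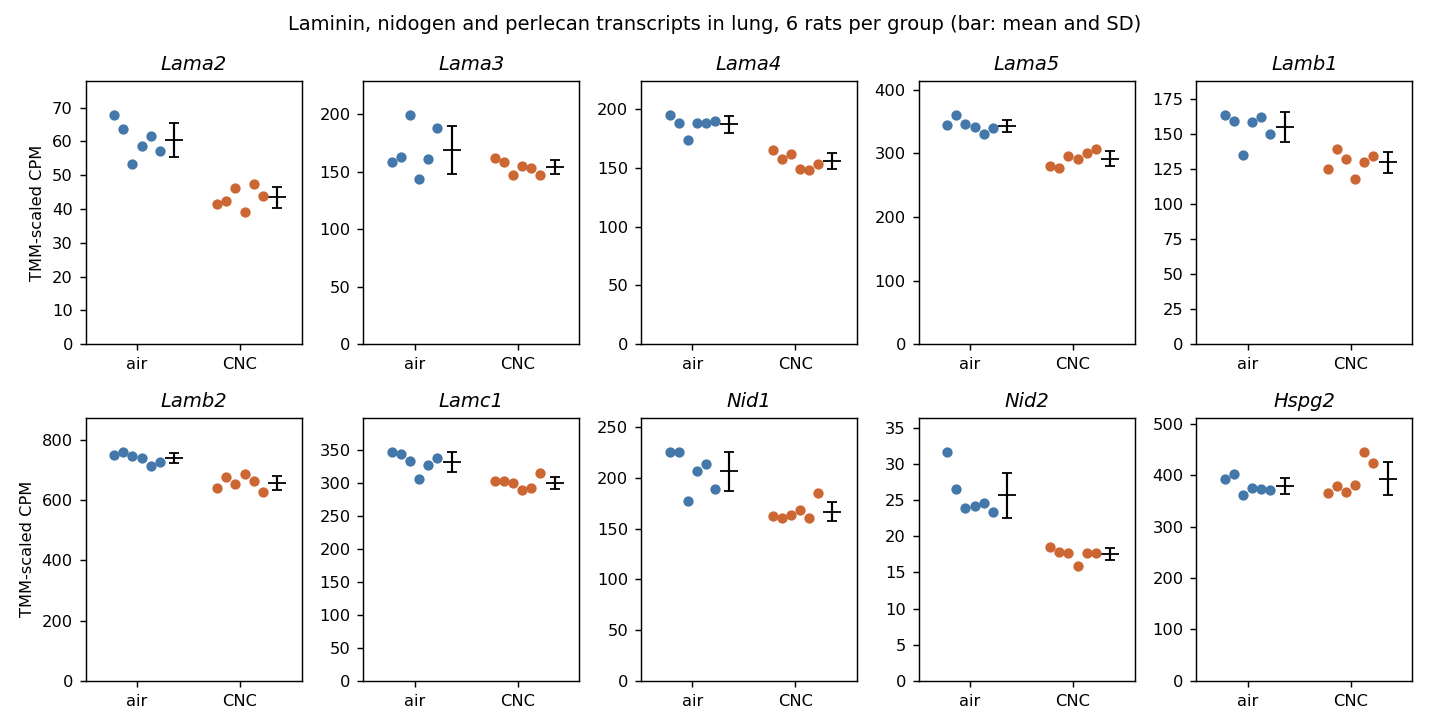
TMM-scaled CPM (vertical axis, starting at 0) of the 10 genes in each rat, with air rats in blue and CNC rats in orange, and the mean and SD of 6 rats beside each group. The groups are apart for Lama2, Lama4, Lama5, Lamb2 and Nid2, nearly apart for Lamb1, Lamc1 and Nid1, and overlap for Lama3 and Hspg2.

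Lama4, the alpha chain of blood vessel laminins, stood at 173, 188 and 195 CPM (lowest, median and highest) in the air rats and at 148, 155 and 165 CPM in the CNC rats. Every CNC rat was below every air rat. The mean went from 187 ± 7.13 to 156 ± 6.88 CPM (SD, n = 6 rats each), a log2 fold change of -0.26 ± 0.04 (SE; 95% interval -0.34 to -0.19; edgeR's quasi-likelihood test, Benjamini-Hochberg adjusted p = 8.34e-05), or 1.2-fold lower.

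Lama5, the chain shared by epithelial and endothelial membranes, stood at 329.9, 343 and 359.8 CPM in the air rats and at 277, 293 and 307 CPM in the CNC rats. The groups were again fully apart. The fall was close to that of Lama4 in size, with means of 344 ± 9.73 and 292 ± 11.8 CPM, a log2 fold change of -0.24 ± 0.03 (95% interval -0.31 to -0.17) and an adjusted p of 9.99e-05.

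Lama3, the epithelial chain that anchors cells through hemidesmosomes, did not pass the test. It stood at 144, 162 and 199 CPM in the air rats and at 147, 154 and 162 CPM in the CNC rats, so all 6 CNC rats lay inside the air range. The log2 fold change was -0.13 ± 0.06 (95% interval -0.27 to 0.01; adjusted p = 0.157). That interval holds the value found for Lama4, so the test does not show that Lama3 was spared. The air rats were widely spread: air replicates 3 and 6, at 199.2 and 188.3 CPM, were the highest, and the other 4 ran from 143.9 to 163.3 CPM. The air coefficient of variation of Lama3 was 12.2%, against 3.94% in the CNC rats. Leaving out air replicate 4, the lowest of that group, put Lama3 past the threshold (log2 fold change -0.17, adjusted p = 0.0372). Leaving out air replicates 4 and 5, the highest in heart muscle markers, did so too (-0.20, adjusted p = 0.0199). Both were below the air median of Lama3, so leaving them out deepens the fall by construction. These p-values are therefore no test of a fall. With single rats left out, the log2 fold change ran from -0.17 to -0.077, and edgeR's adjusted p reached 0.352.

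Lama2, the chain of muscle and mesenchymal membranes, fell the most of the alpha chains. It stood at 53.2, 60.1 and 67.7 CPM in the air rats and at 39.2, 43.1 and 47.3 CPM in the CNC rats, with no overlap. The mean went from 60.3 ± 5.08 to 43.4 ± 3.02 CPM, a log2 fold change of -0.48 ± 0.06 (95% interval -0.60 to -0.35; adjusted p = 3.54e-05), or 1.39-fold lower.

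The beta and gamma chains are shared by laminins of many cell types. Lamb2, the beta chain of mature vascular and muscle laminins, stood at 714, 743 and 760.1 CPM in the air rats and at 627, 659 and 688 CPM in the CNC rats, with no overlap. Its log2 fold change was -0.17 ± 0.03 (95% interval -0.24 to -0.10; adjusted p = 0.000907). Lamb1, the more widely used beta chain, stood at 135, 159 and 163 CPM in the air rats and at 118, 131 and 139 CPM in the CNC rats. Here 5 of 6 CNC rats were below the lowest air rat, which was air replicate 3, and the log2 fold change was -0.25 ± 0.05 (95% interval -0.36 to -0.15; adjusted p = 0.0015).

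Lamc1, the gamma chain found in most laminins, showed the smallest fall of the 8. It stood at 305, 335 and 346 CPM in the air rats and at 288, 301 and 314 CPM in the CNC rats, and 5 of 6 CNC rats lay below the lowest air rat. Its log2 fold change was -0.15 ± 0.04 (95% interval -0.22 to -0.07; adjusted p = 0.00615).

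Both nidogens fell. Nid2 stood at 23.3, 24.4 and 31.6 CPM in the air rats and at 15.9, 17.7 and 18.5 CPM in the CNC rats. All CNC rats were below all air rats, and at -0.56 ± 0.07 (95% interval -0.71 to -0.40; adjusted p = 5.81e-05), or 1.47-fold lower, this was the largest log2 fold change of the 10 genes. Nid1 stood at 178, 210.5 and 226 CPM in the air rats and at 160.4, 163 and 185 CPM in the CNC rats. The groups met only through CNC replicate 6, at 185.4 CPM, which lay above air replicate 3, and the log2 fold change was -0.31 ± 0.06 (95% interval -0.43 to -0.19; adjusted p = 0.00106).

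Perlecan was not called. Hspg2 stood at 361, 374 and 402 CPM in the air rats and at 365, 379.9 and 445 CPM in the CNC rats. CNC replicates 5 and 6, at 444.7 and 423.3 CPM, were above every air rat, while the other 4 CNC rats were in the air range. The log2 fold change was 0.05 ± 0.05 (95% interval -0.05 to 0.16; adjusted p = 0.489), and this interval does not reach the value of any of the 8 genes that fell.

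**Figure D2:**
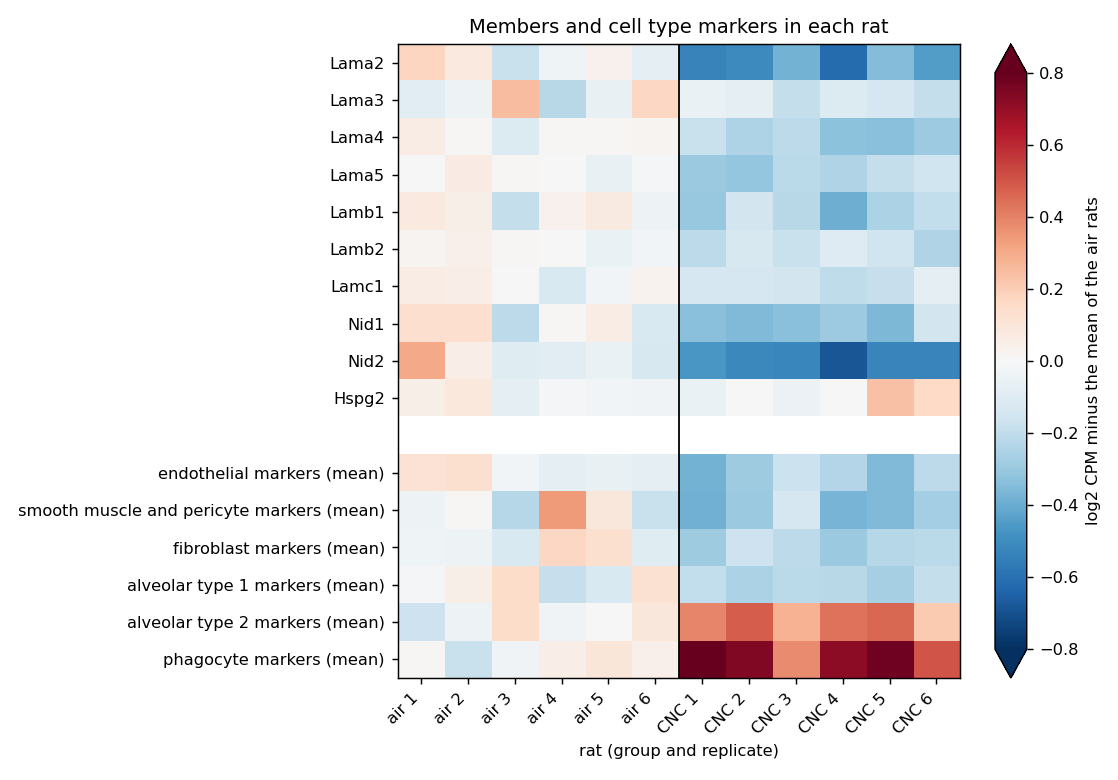
Colour shows log2 CPM in each rat minus the mean of the air rats (columns: 6 air and 6 CNC rats). The upper rows are the 10 genes. The lower rows are means of endothelial, smooth muscle and pericyte, fibroblast, alveolar type 1, alveolar type 2 and phagocyte markers. In the gene rows, squares of CNC rats are below 0 except for Hspg2. Air replicates 3 and 6 are the highest air rats in Lama3 and the lowest in Lama2, Lamb1 and Nid1. The alveolar type 2 and phagocyte rows are above 0 in every CNC rat.

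The 6 air rats were not alike in these genes. Air replicates 3 and 6 had the highest Lama3 of their group and its lowest Lama2, Lamb1 and Nid1. They also had the highest summed markers of type 1 alveolar cells of all 12 rats (13622 and 13144 CPM), and the lowest fibroblast sums (5014 and 5254 CPM) and smooth muscle and pericyte sums (854 and 892 CPM) of the air group. The part that these differences play in the values above was not tested. With both rats left out, a choice made after seeing the data, 8 of the 10 genes were still called.

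Because chains of 1 laminin come from separate genes, 7 within-library ratios of counts were compared between rats, each by a 2-sided exact permutation test over the 924 splits of 12 rats into 6 and 6, with Benjamini-Hochberg adjustment over the 7. A ratio is compared only between rats, since the genes differ in length. The epithelial chain Lama3 stood at 0.765, 0.863 and 1.149 per Lama4 (lowest, median and highest) in the air rats and at 0.91, 0.995 and 1.04 in the CNC rats. The CNC rats lay inside the air range, and the mean log2 ratio was higher by 0.14 (95% interval -0.07 to 0.33; exact permutation p = 0.162, adjusted p = 0.284). A shift from vascular towards epithelial chains was thus not detectable over all 12 rats, and a rise of up to 0.33 remained possible. The value turned on the 2 air rats with the highest ratio. Without air replicate 3 the difference was 0.21 (exact permutation adjusted p = 0.0265). Without air replicates 3 and 6, a choice made after seeing the data, it was 0.26 (exact permutation adjusted p = 0.0333). Leaving out the air rats of highest ratio raises the difference by construction, so these p-values are no test of a shift.

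The other ratios of alpha chains gave a mixed picture. Lama3 per Lama5 ran from 0.421 to 0.576 in the air rats and from 0.479 to 0.579 in the CNC rats, a log2 difference of 0.11 (95% interval -0.08 to 0.30; exact permutation adjusted p = 0.293). Without air replicates 3 and 6, the highest air rats in this ratio too, it was 0.21 (exact permutation adjusted p = 0.0333). That value is likewise no test of a shift. Lama5 per Lama4 ran from 1.76 to 1.995 and from 1.69 to 2.04, a difference of 0.03 (95% interval -0.09 to 0.16; exact permutation adjusted p = 0.582).

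Lama2 was the alpha chain that moved against another. Lama2 per Lama4 stood at 0.302, 0.32 and 0.348 in the air rats and at 0.251, 0.277 and 0.32 in the CNC rats, with 5 CNC rats below the lowest air rat. The log2 ratio fell by 0.21 (95% interval -0.34 to -0.08; exact permutation p = 0.00866, adjusted p = 0.0202). Lama2 thus fell by more than Lama4 within the same libraries. The adjusted p rose to 0.0556 when air replicates 4 and 5, or CNC replicates 3 and 6, were left out, with 6 rats of 1 group and 4 of the other remaining.

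**Figure D3:**
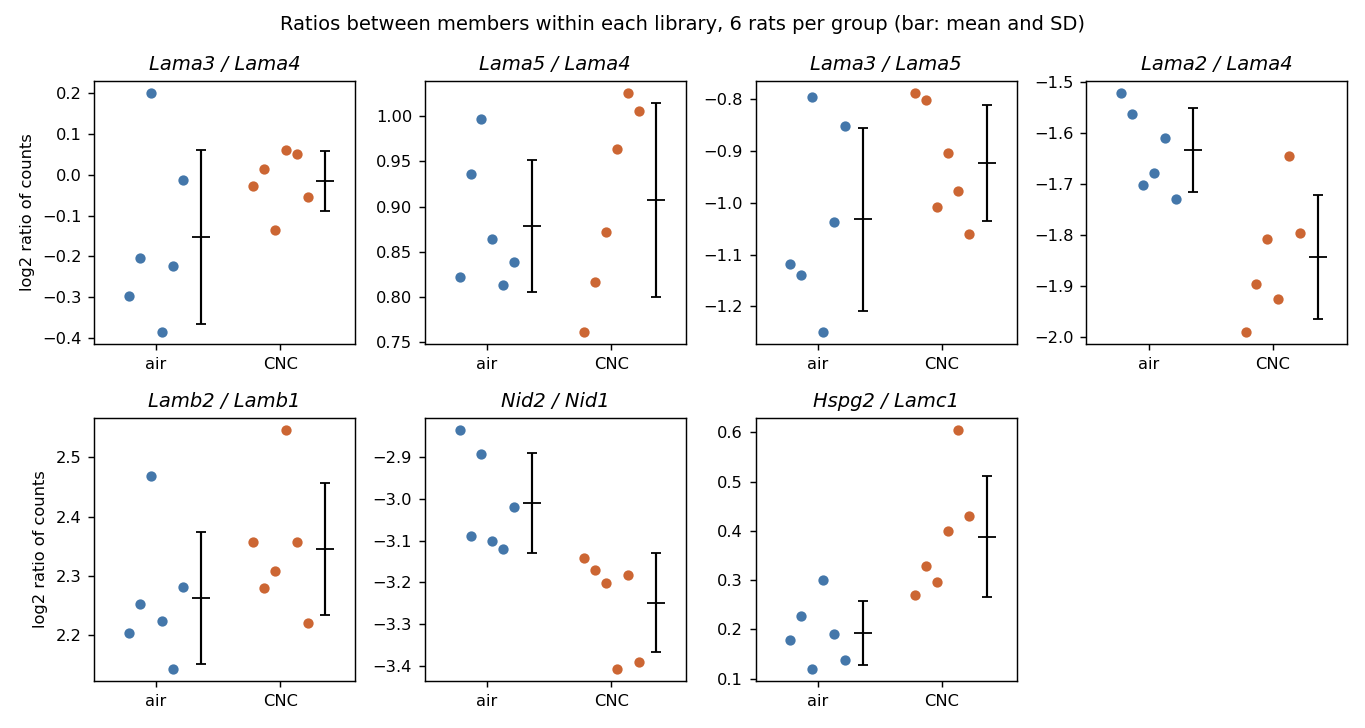
Within-library log2 ratios of counts (vertical axes, 1 panel per ratio) in each rat, with the mean and SD of 6 rats beside each group. Nid2 per Nid1 separates the groups, Hspg2 per Lamc1 has 4 CNC rats above all air rats, and Lama3 per Lama4 overlaps.

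The 2 nidogens also parted from each other. Nid2 per Nid1 stood at 0.115, 0.12 and 0.14 in the air rats and at 0.0942, 0.109 and 0.113 in the CNC rats, with no overlap. The log2 ratio fell by 0.24 (95% interval -0.40 to -0.08; exact permutation p = 0.00216, the smallest this design allows, adjusted p = 0.0152). Lamb2 per Lamb1 ran from 4.42 to 5.53 and from 4.66 to 5.84, a difference of 0.08 (95% interval -0.06 to 0.22; exact permutation adjusted p = 0.293). Without air replicate 3, the highest air rat in this ratio, it was 0.12 (exact permutation adjusted p = 0.0485). Leaving out that rat raises the difference by construction.

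Perlecan rose relative to the laminin gamma chain. Hspg2 per Lamc1 stood at 1.09, 1.14 and 1.23 in the air rats and at 1.21, 1.29 and 1.52 in the CNC rats, and 4 CNC rats were above every air rat. The log2 ratio was higher by 0.20 (95% interval 0.08 to 0.32; exact permutation p = 0.00649, adjusted p = 0.0202). The adjusted p of this ratio and of Nid2 per Nid1 came to 0.05 without CNC replicates 3 and 6.

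The stretches of 250 bases before the RefSeq start site (GRCr8) are shown for 4 genes: the pair that was not called, Lama3 and Hspg2, and Lama4 and Lamc1, which fell. Each runs 5′ to 3′ on the strand of its gene, and the start sites belong to this assembly and not to the build of the counts. Capitals mark TGANTCA (the AP-1 motif) in Lama3 and GGGCGG (the GC box) in Hspg2 and Lamc1, on either strand, and Lama4 held neither. The windows are chr18:3952517-3952766 (plus strand) for Lama3, chr20:43946648-43946897 (plus strand) for Lama4, chr13:68051987-68052236 (minus strand) for Lamc1 and chr5:154960596-154960845 (plus strand) for Hspg2.
Lama3: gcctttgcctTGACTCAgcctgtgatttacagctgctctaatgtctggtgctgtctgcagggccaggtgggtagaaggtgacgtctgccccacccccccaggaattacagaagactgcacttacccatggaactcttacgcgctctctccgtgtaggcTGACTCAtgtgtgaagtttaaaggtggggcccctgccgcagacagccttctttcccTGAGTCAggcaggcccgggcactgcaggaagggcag
Lama4: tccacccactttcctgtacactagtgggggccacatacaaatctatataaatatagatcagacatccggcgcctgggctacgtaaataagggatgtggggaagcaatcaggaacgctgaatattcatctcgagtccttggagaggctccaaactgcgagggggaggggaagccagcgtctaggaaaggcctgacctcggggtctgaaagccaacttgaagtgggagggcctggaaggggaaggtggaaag
Lamc1: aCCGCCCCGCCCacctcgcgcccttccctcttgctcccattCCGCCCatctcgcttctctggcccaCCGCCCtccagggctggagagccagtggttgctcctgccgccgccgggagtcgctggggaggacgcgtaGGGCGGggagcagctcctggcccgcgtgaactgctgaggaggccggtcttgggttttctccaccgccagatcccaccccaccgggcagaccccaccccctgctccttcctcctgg
Hspg2: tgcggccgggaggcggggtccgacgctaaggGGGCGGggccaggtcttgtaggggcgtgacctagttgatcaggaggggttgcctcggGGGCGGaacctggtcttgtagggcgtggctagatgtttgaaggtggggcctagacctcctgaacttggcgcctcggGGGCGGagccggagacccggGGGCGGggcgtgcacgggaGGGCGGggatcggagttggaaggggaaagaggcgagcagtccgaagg

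Of the 10 genes, 8 had a window in the RefSeq table, all but Lamb2 and Nid2. Lama3 held the AP-1 motif 3 times and was the only one of the 8 with a match, where 6.34% of 33469 windows of the same length held at least 1 and 5 windows held 3 or more. The GC box was found in 6 of the 8 windows, with 5 matches each in Hspg2 and Lamc1, 4 in Lama5, 2 each in Lamb1 and Nid1 and 1 in Lama2. It was found in 30.5% of all windows, and in 7.41% at least 3 times. In Lamc1 the first pair of matches shares a base. The E-box CACGTG was in 0 of the 8 windows and in 5.59% of all. Thus Hspg2, which was not called, and Lamc1, which fell, held the same number of GC boxes. A match is a description of the letters and shows no bound factor. The Lama3 window lies inside the gene, at the start of a shorter transcript, and the counts sum all its transcripts. The Nid1 window and nearly all of the Lamb1 window also lie inside the annotated span of their gene, as do their GC boxes. The last bases of the Lama2 and Hspg2 windows reach into theirs.

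Of 3 further laminin chains, 2 were tested and 0 called by edgeR, DESeq2 or limma-voom, with 1 at an unadjusted p under 0.05 in edgeR and a median log2 fold change of -0.16. Lamb3, the beta chain of the epithelial laminin that holds Lama3, was at 191 ± 15.2 and 193 ± 6.45 CPM (0.01 ± 0.05, adjusted p = 0.872). Lamc3, a gamma chain, was at 27.5 ± 3.64 and 21.9 ± 6.02 CPM (-0.34 ± 0.15, adjusted p = 0.107), and it was called without CNC replicate 3 (adjusted p = 0.0476) or CNC replicate 6 (adjusted p = 0.0318). Lama1 was not tested, with 2 counts in all air rats and 5 in all CNC rats.

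The collagens that form the other network of the basement membrane fell with the laminins in part. Of 10 tested, 5 fell, 1 rose and 4 were not called, a share of 60% called against 24.6% of all genes tested. Their median log2 fold change was -0.17. Col4a1 and Col4a2, the chains of the common type IV collagen, went from 1181 ± 79.7 to 894 ± 50.2 CPM (adjusted p = 2.59e-05) and from 793 ± 57.2 to 595 ± 29.9 CPM (adjusted p = 2.01e-05). Col7a1, the anchoring fibril collagen, fell by 0.44 on the log2 scale (adjusted p = 0.000451) and Col4a5 by 0.18 (adjusted p = 0.00167). The gene that rose was Col17a1, the hemidesmosome collagen of epithelium, from 28.0 ± 2.35 to 34.2 ± 4.59 CPM (adjusted p = 0.0174), named after its value was seen. Col4a3 and Col4a4, chains of the alveolar type IV collagen, were at -0.09 ± 0.08 (adjusted p = 0.476) and -0.13 ± 0.10 (adjusted p = 0.402), and were also named after their values were seen.

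Among other glycoproteins and proteoglycans of the basement membrane, 9 of 16 tested fell and 0 rose, and the median log2 fold change was -0.20. Of all genes tested, 11.4% were called lower and 13.2% higher. Sparc, a collagen-binding protein, went from 2182 ± 115 to 1745 ± 87.8 CPM (adjusted p = 6.59e-05). Pxdn, the peroxidase that cross-links type IV collagen, fell by 0.28 on the log2 scale (adjusted p = 0.000107). Ntn4, a netrin that binds laminin, also fell by 0.28 (adjusted p = 0.000122), and Fbln2, a fibulin, by 0.45 (adjusted p = 0.000198).

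**Figure D4:**
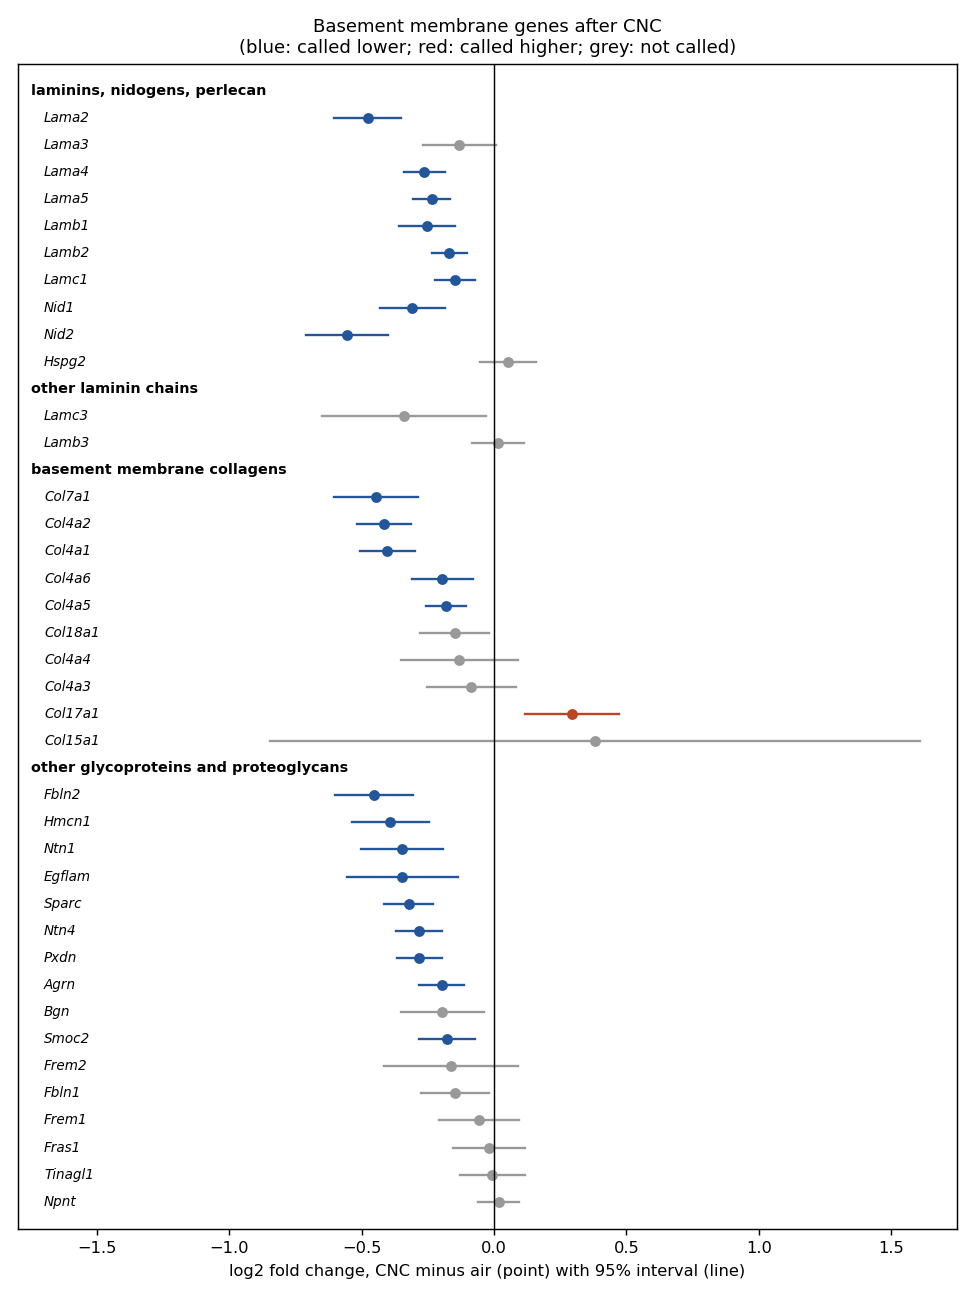
Log2 fold change of CNC against air (point) with its 95% interval (line) for the 10 genes and for 3 related gene lists, with blue for called lower, red for called higher and grey for not called. Col4a1, Col4a2 and Nid2 lie well below 0, while Lama3, Lamb3 and Hspg2 have intervals that include 0.

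Of 15 laminin receptors and their partners tested, 5 fell and 1 rose, a share of 40% called against 24.6% of all genes. Among tested genes with at least the mean level of Nid2, the share was 32.3%. The median log2 fold change was -0.09. Itgb1, the beta subunit common to most laminin-binding integrins, went from 1021 ± 22.5 to 928 ± 18.4 CPM (adjusted p = 0.00205). Itga8, which binds nephronectin, fell by 0.19 on the log2 scale (adjusted p = 0.0018), and Itga1, which binds type IV collagen and laminin, by 0.23 (adjusted p = 0.00482). Sdc1, the epithelial syndecan, rose from 347 ± 25.7 to 392 ± 17.8 CPM (adjusted p = 0.012).

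Enzymes that build or trim heparan sulfate, the chains that perlecan carries, were called in 4 of 16 tested genes, 2 lower and 2 higher, and the median log2 fold change was -0.05. This share is 25%, close to the 24.6% of all genes. Hpse, the heparanase that cuts these chains, rose from 14.7 ± 1.22 to 21.8 ± 1.85 CPM, 1.48-fold (adjusted p = 4.2e-05), with no overlap between the groups. Sulf2, which removes sulfate from them, rose by 0.16 on the log2 scale (adjusted p = 0.0315), and the chain-forming enzymes Extl3 and Ext1 fell by 0.15 (adjusted p = 0.0212) and 0.12 (adjusted p = 0.0427). The calls of Ext1, Sulf2 and Extl3 were lost in 14, 10 and 5 of 25 alternatives, and only 1 of the list was called without air replicate 1, air replicate 2 or CNC replicate 2, against 2 without air replicate 5 or CNC replicate 4.

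Proteases able to cut basement membrane split in both directions, with 4 of 10 tested lower and 4 higher. This share is 80% called, against 24.6% of all genes tested, and the median log2 fold change was -0.06. Mmp12, the macrophage elastase, rose 4.86-fold (adjusted p = 2e-05). The lysosomal proteases Ctsb and Ctss rose from 872 ± 49.4 to 1176 ± 94.8 CPM (adjusted p = 3.5e-05) and by 0.52 on the log2 scale (adjusted p = 8.29e-05). Plau, the urokinase, fell from 44.3 ± 1.82 to 36.7 ± 2.65 CPM (adjusted p = 0.000907).

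Marker genes of several cell types of the lung were called as well. Over all genes tested, the shares called were 11.4% lower and 13.2% higher. Endothelial markers fell in 18 of 20 tested (median log2 fold change -0.26; summed 9820 to 11511 CPM in air and 8347 to 9371 CPM in CNC rats). Smooth muscle and pericyte markers fell in 7 of 12 (median -0.31; 854 to 1201 CPM and 754 to 914 CPM), and fibroblast markers in 7 of 11 (median -0.27; 5014 to 6067 CPM and 4874 to 5285 CPM). The fibroblast list shares Itga8, which fell, and Npnt, which was not called, with the basement membrane lists. Type 1 alveolar markers fell in 9 of 12 (median -0.20; 11112 to 13622 CPM and 10182 to 10686 CPM). Type 2 alveolar markers rose in 9 of 11 (median 0.39; 23825 to 31108 CPM and 31752 to 38889 CPM). General epithelial markers were mostly not called, with 3 of 12 higher, 1 lower and 8 not called (median 0.01), and their sums overlapped (1391 to 1615 CPM in air and 1413 to 1594 CPM in CNC rats). Airway basal cell markers summed to no more than 15.7 CPM in any rat, and 2 of the 5 in the table could be tested. Their log2 fold changes were -0.21 and -0.31, neither called by edgeR, with 0 at an unadjusted p under 0.05. Phagocyte markers rose in 8 of 10 and fell in 1 (median 0.70; 14419 to 19196 CPM and 23724 to 29547 CPM). Marco was at 0 counts in every library, and no endothelial, smooth muscle and pericyte, fibroblast or alveolar marker was. The part of these changes in the falls of the laminin genes was not tested.

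Set against the mean log2 CPM of the endothelial markers in the same library, as a description, Lama4 differed between the groups by 0.01, Lama5 by 0.04 and Lamb1 by 0.02 on the log2 scale. Other chains differed by more on this scale: Lama2 by -0.20, Lama3 by 0.15, Lamb2 by 0.10 and Lamc1 by 0.13, with 4 of 6 CNC rats above every air rat for both Lamb2 and Lamc1. Nid1 differed by -0.03. Nid2 was lower on this scale in every CNC rat than in any air rat (difference -0.27). Hspg2 was higher in every CNC rat, at 0.39 to 0.85 against 0.20 to 0.33 in the air rats, with a difference of 0.32. Markers of other cell types fell by similar amounts. Median log2 fold changes were -0.31 for smooth muscle and pericyte, -0.27 for fibroblast and -0.20 for type 1 alveolar markers, against -0.26 for endothelial markers. No other reference was used, so whether small differences are particular to endothelium was not tested.

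The groups also differed in circadian clock genes, 14 of 16 tested being called, 6 lower and 8 higher, against 24.6% called of all genes tested. Their first principal component ran from -1.46 to 0.23 in the air rats and from 0.25 to 1.27 in the CNC rats, without overlap, so it and the exposure cannot be told apart. With this component as a covariate, 0 of the 10 genes (7 at an unadjusted p under 0.05) and 4.85% of all genes tested were called by edgeR, with standard errors 1.9 to 2.2 times as large, and the 8 genes had log2 fold changes from -0.41 (Lama2) to -0.017 (Lamc1). DESeq2 and limma were not run with this covariate.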

How the data were processed

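Whole lung RNA of 12 rats was sequenced, and groups were taken from the treatment in the labels. Replicate numbers only name rats. The p-values set the difference between groups against the spread between rats, which were taken as independent. Cage and chamber were not in any model, so their effects cannot be told apart from that of the exposure. Per the labels' protocols, total RNA including small RNA was isolated (miRNeasy), and stranded mRNA libraries were amplified over 12 PCR cycles. HTSeq 0.11.2, SAMtools 1.8, Cufflinks, HISAT2 2.1.0, Trimmomatic 0.35 and bcl2fastq 2.19 appear in the submitters' processing notes with no role stated. The authors deposited raw counts per gene symbol, not normalized. The name of their table holds the build Rnor6, and strand setting and annotation were not given in the sources used here, so overlapping and antisense genes are uncertain.

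The analysis used edgeR 4.0.16 under R 4.3.3: filterByExpr (minimum count 10, minimum total 15), TMM scaling, glmQLFit and glmQLFTest with robust = FALSE, all 12 libraries and no covariate. The common biological coefficient of variation was 8.05%. CPM are TMM-scaled and log2 CPM use a prior count of 2. Intervals of ratios invert the exact permutation test. No libraries looked like repeats (chi-square per degree of freedom 2.69 to 8.36 over 30 pairs within groups, where sampling noise gives 1). Tested on simulated data of this comparison (14938 genes), the fit recovered 24, 50, 78 and 86% of genes changed 1.15-, 1.25-, 1.5- and 2-fold, with 8 false calls among 127. Only 50 genes were changed by each fold, a far smaller share than the 24.6% called in the real data. The adjusted threshold was thus stricter there, and these shares do not give the power of the real comparison. The 10 genes, the gene lists, the ratios and the alternatives were chosen with earlier results of these data known. Named genes are the 10 members, 3 further laminin chains, up to 4 called genes of smallest adjusted p from each related list, and the 3 genes nearest to Lama3, Lama4 and Hspg2. Alternatives were other scalings and filters, DESeq2 1.42.0, limma-voom (limma 3.58.1), robust edgeR, covariates and left-out rats. A result that the lists would give is not reported here. Promoter windows came from RefSeq (GRCr8). Of the markers, Cxcl15, Trp63, Ccr2 and Hba-a2 were not matched. Figures were drawn with matplotlib 3.10.9.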

Additional observations from a re-analysis of the deposited data

Results flagged for a closer look

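In groups of 6 rats, a value was picked out when its gap to the nearest other rat was a larger share of the range of its group than Dixon's 95% critical value. Chance picks out about 1 in 20 groups, and 5 of 78 groups were picked out here. Lama4 in air replicate 3 was at 173 CPM, the lowest of its group, with the next at 188 CPM, and still above every CNC rat. Nid1 in CNC replicate 6 was at 185 CPM, the highest of its group, with the next at 168 CPM. Nid2 in CNC replicate 4 was at 15.9 CPM, the lowest, with the next at 17.7 CPM. Among related genes, Col4a1 in CNC replicate 6 was at 986 CPM (next 898) and Extl3 in CNC replicate 5 at 72.5 CPM (next 66.3). Without any 1 of these rats, the calls of Lama4, Nid1, Nid2 and Col4a1 remained.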

How the results depend on the processing

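Over 25 alternatives for each of the 10 genes, 239 of 250 values kept direction and call. The number called was 8 or 9 in all alternatives except the clock gene covariate, where it was 0. Under that covariate the called genes of all related lists went from 33 to 7, of collagens from 6 to 3, of glycoproteins from 9 to 3, of receptors from 6 to 0, of heparan sulfate enzymes from 4 to 0 and of proteases from 8 to 1. At an unadjusted p under 0.05, edgeR then gave 4 receptors and 4 heparan sulfate enzymes. Lama3 (0.13), Itga1 (0.061) and Extl3 (0.00024) changed sign there. The cause was not tested.

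Further laminin chains had 1 call without CNC replicates 3 and 6 and 0 to 1 with single rats left out. Heparan sulfate enzymes had 2 with a heart muscle covariate, 2 without CNC replicates 3 and 6, and 1 to 5 with single rats left out. The call of Sdc1 was lost in 2 of 25 alternatives. Lamb3, near 0, was at -0.0083 with library size alone, at -0.034 without air replicates 4 and 5, and at -0.0038 to 0.056 with single rats left out.

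Without air replicates 3 and 6 the log2 differences were 0.26 for Lama3 per Lama4, 0.21 for Lama3 per Lama5 and 0.14 for Lamb2 per Lamb1, all past the threshold. These rats had the highest air values of each of these ratios and were left out after seeing the data. Passing the threshold there is therefore no test of a shift. With single rats left out, Lama3 per Lama4 ran from 0.091 to 0.21 and Lamb2 per Lamb1 from 0.042 to 0.12. Lama2 per Lama4 was -0.21 without air replicates 4 and 5. Leaving out CNC replicates 3 and 6 gave it -0.23, and there Nid2 per Nid1 was -0.22 and Hspg2 per Lamc1 0.21, each no longer past the threshold with fewer rats. Library size alone turned the split of all calls to 1683 higher and 2151 lower, from 1981 and 1710. No paired analysis was possible because the rats of the 2 groups share no number in the labels. Nid2 had the fewest counts, 175 in its lowest library.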

Other observations

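The genes whose pattern over the 12 rats was nearest to 3 of the members were found among 14676 genes whose mean reached 1 CPM, by the root mean square difference of mean-centred log2 CPM. For Lama3, whose own spread by that measure was 0.134, they were Pdpn (0.0502), a surface protein of type 1 alveolar cells, Utrn (0.0551), a relative of dystrophin, and Ahnak (0.0552). None of the 3 was called, with log2 fold changes of -0.11, -0.13 and -0.14. For Lama4, with a spread of 0.143, they were RGD1309079 (0.0451), Mcf2l (0.0458) and Pde8b (0.0461), all called lower (log2 fold changes -0.23, -0.27 and -0.27). For Hspg2, with a spread of 0.0881, they were Kdm6b (0.0511), a histone demethylase, Bahcc1 (0.0522) and Pfas (0.0535), none of them called.

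Col15a1, a collagen of the outer basement membrane zone, varied more than any of the 10 members, from 0.305 to 14.0 CPM in the air rats and from 1.92 to 18.6 CPM in the CNC rats (log2 fold change 0.38 ± 0.58, adjusted p = 0.693). It was picked out after its values were seen.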
